A study of Caenorhabditis elegans with 24 samples.

Results

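Histone genes of *C. elegans* were followed through repeated hypoxia. The members are the 72 genes, of 46926 in the count table, whose WBcel235 name starts with his-. Poly(A)-selected RNA of whole N2 (wild type) worms was sequenced in 24 libraries, 3 per group. Hypoxia worms were placed at 0.1% oxygen for 16 hours at 20 °C from the L4 larval stage then washed off the plates and frozen, and normoxia worms were kept at normal oxygen for the same period. This was done in 4 successive generations, called exposures 1 to 4, and hypoxia worms at a later exposure descended from worms that had been exposed in every earlier generation. The worms carried no mutation or transgene, and each library is a pool of whole synchronized worms of all tissues, so fewer cells of a type and less RNA per cell cannot be told apart. The question of the comparison is how the response of these genes to low oxygen changes as exposures are repeated.

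Histones package DNA. H2A, H2B, H3 and H4 form the nucleosome core, and the linker histone H1 binds the DNA between cores. Most core histones are made during DNA replication from short intronless genes, which in *C. elegans* lie in clusters, often as divergent pairs. Their transcripts end in a stem-loop rather than a poly(A) tail, so poly(A) selection is expected to recover few of them, and their counts here are of the recovered part alone. Replacement variants, such as H3.3, are expressed outside replication, mostly from genes with introns, and are polyadenylated. The labels give the L4 stage, yet vitellogenin and adult collagen transcripts (the adult soma list of 6 genes) summed to between 18790 and 97570 CPM (counts scaled to a common library size) in every library, and sperm, oocyte and molting markers were also present.

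By structure and histone type the 72 members fell into 59 intronless copies (15 H2A, 15 H2B, 14 H3 and 15 H4), 3 copies with introns (*his-57*, an H2A; *his-41*, an H2B; *his-37*, an H4), 8 variants and 2 fragments too short to code for a whole histone (*his-39* and *his-73*). The variants are *his-24* (the linker histone H1), *his-35* (H2A), *his-69*, *his-70*, *his-71*, *his-72* and *his-74* (H3.3 and H3.3-like), and *his-40* (H3-like). The gene models of *his-40*, *his-69* and *his-70* have no intron, so 8 members in all have introns. Members lay in 18 positions, 13 of which held 2 or more of them. Copies are nearly identical in coding sequence, the gene models of the intronless copies cover the coding part alone, and how the counting treated reads that match several copies is not given in the sources used here. The value of any single intronless copy is therefore uncertain, and sums over a cluster or class are given beside it. Copies in different clusters can share an Ensembl symbol, as *his-47* and *his-65* do, so a cluster sum may carry the same uncertainty. Of the 72 members, 11 overlap another annotated gene (*his-16*, *his-24*, *his-37*, *his-41*, *his-57* and *his-72* among those described below), and whether strand was used in counting is not stated.

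Together the members took 16283 to 37890 counts per library, of library totals of 26862487 to 46228496. Per length, the intron-containing members led, except that the intronless *his-60* (27.4 CPM per kb) stood above *his-57* (19.9 CPM per kb). Over the 24 libraries *his-72* averaged 383 CPM per kb of exon, *his-74* averaged 230 CPM per kb and *his-24* averaged 173 CPM per kb. The intronless copies had a median of 4.56 CPM per kb, between 0.142 and 27.4. The 3 leading genes held 49.9 to 77.2% of all member counts, and the 59 intronless copies 6.75 to 23.1%. The highest intronless copy of each class was *his-68* for H2A (15.3 CPM per kb), *his-58* for H2B (8.41 CPM per kb), *his-59* for H3 (10.6 CPM per kb) and *his-60* for H4 (27.4 CPM per kb).

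**Figure D1:**
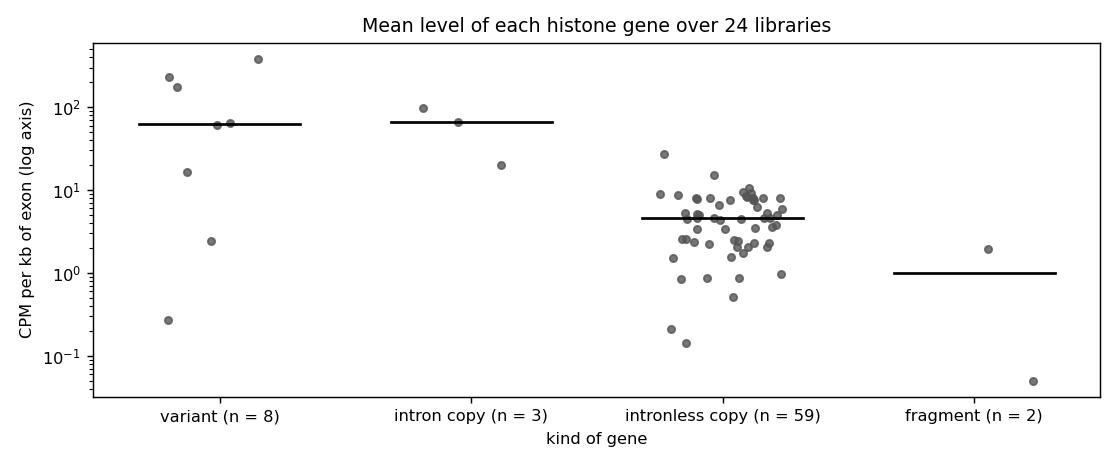
Mean level of each of the 72 histone genes over 24 libraries, in CPM per kb of exon on a log axis, by kind of gene; each point is a gene and each line a median. The intronless copies have a median of 4.56 CPM per kb, and 3 variants lie above 170 CPM per kb.

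The 3 hypoxia and 3 normoxia libraries of each exposure were compared with edgeR, and calls rest on an adjusted p (Benjamini-Hochberg, over all genes tested) under 0.05. A gene was tested where its counts over the 6 libraries summed to at least 350. In exposures 1 to 4, 37, 40, 25 and 43 of the 72 members reached that sum, 47 in at least 1 exposure, and 25 never did. Of those tested, 10, 31, 5 and 14 were called higher in hypoxia, against 13.3%, 37.2%, 12.4% and 27.1% of all tested genes called higher. Called lower were 2, 5, 3 and 3, against 7.4%, 36.3%, 17.7% and 23% of all tested genes. Over both directions, 20.7%, 73.5%, 30.1% and 50.1% of all tested genes were called. Many copies passed the sum through their hypoxia libraries alone, so every member was also tested with no filter. Of all 72, 15, 43, 22 and 24 were then called higher in exposures 1 to 4, against 8.38%, 21.3%, 7.28% and 15.3% of all genes, and 3, 7, 1 and 4 were called lower, against 4.87%, 19.6%, 11.6% and 12.2% (over both directions, 13.3%, 40.9%, 18.9% and 27.6% of all genes). Every hypoxia library was above every normoxia library for 12, 40, 26 and 28 of the 72, against 13.5%, 20.8%, 13.5% and 22.2% of all genes, and below for 13, 10, 4 and 3, against 13.3%, 26.6%, 17.3% and 13.6%. The median log2 fold change (hypoxia over normoxia) of the 72 was 0.30, 1.03, 0.53 and 0.34, beside 0.01, -0.03, 0.00 and 0.07 for all genes. In exposure 1 the filtered count of 10 depended on single libraries: it was 3 without hypoxia replicate 1, 17 without hypoxia replicate 2 and 2 without hypoxia replicate 3, and 4, 3 and 5 without normoxia replicate 1, 2 or 3.

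The largest rises were in a block of 13 intronless copies on chromosome II, between 13817760 and 13828697, which holds *his-9* to *his-16*, *his-25*, *his-26* and *his-42* to *his-44* (3 H2A, 3 H2B, 4 H3 and 3 H4 genes, 6 on the plus and 7 on the minus strand). This grouping was made after values were seen, so its counts and sums are a description. With no filter, edgeR called 13, 13, 11 and 13 of the 13 higher in hypoxia at exposures 1 to 4 and none lower. Of all genes 8.38%, 21.3%, 7.28% and 15.3% were called higher. The median log2 fold changes of the 13 were 3.10, 2.31, 1.63 and 3.50. Counts were low in normoxia: over the 3 libraries of an exposure single copies had 24 to 850 counts in hypoxia, against 2 to 138 in normoxia. With the filter 10, 10, 2 and 9 of them were tested, and 8, 10, 2 and 9 were called, so the filter let copies in through their hypoxia counts. The filtered count of 8 at exposure 1 was 2, 10 and 1 without hypoxia replicate 1, 2 or 3, and 3, 2 and 4 without normoxia replicate 1, 2 or 3. At exposures 2, 3 and 4 it was the same with each library left out.

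Summed over the 13 copies, exposure 1 gave 87.9, 19.1 and 93.1 CPM in the hypoxia libraries, against 3.6, 9.71 and 12.8 CPM in the normoxia libraries. At exposure 2 the sums were 49.3, 53.3 and 47.6 CPM in hypoxia, against 9.60, 10.1 and 11.8 CPM in normoxia. Every hypoxia library was above every normoxia library, and hypoxia replicate 2 of exposure 1 was far below its companions. Exposure 3 was the lowest for hypoxia, with 18.7, 16.9 and 26.2 CPM, against 6.83, 3.47 and 8.44 CPM in normoxia. Exposure 4 gave 60.3, 55.3 and 47.8 CPM in hypoxia, against 5.45, 3.94 and 4.92 CPM in normoxia. Here too the groups did not overlap. The ratio of the group means was 7.68, 4.76, 3.3 and 11.4 in exposures 1 to 4. With each library of exposure 1 left out in turn its log2 ratio ran from 2.57 (without normoxia replicate 1) to 3.38 (without hypoxia replicate 2), beside 2.94 with all 6.

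**Figure D2:**
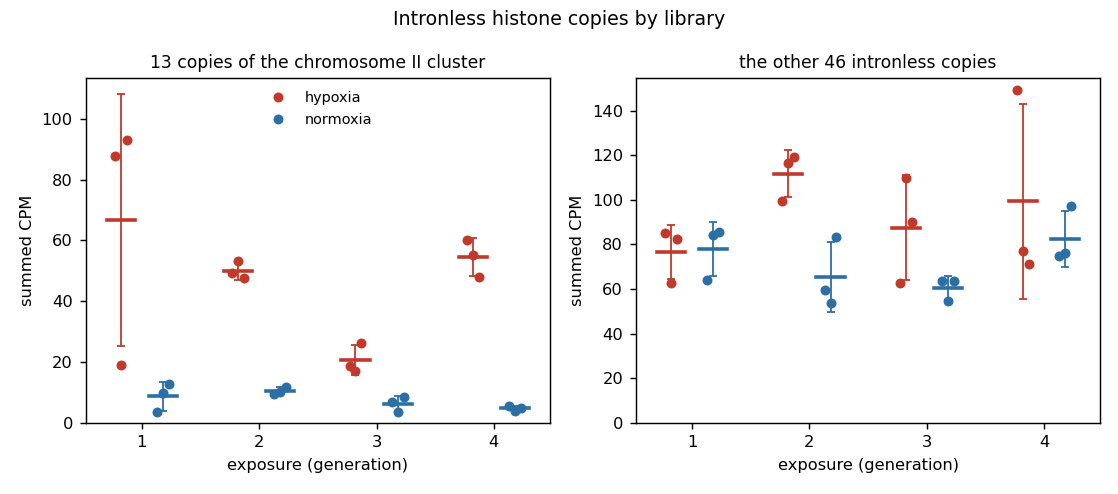
Summed CPM of the 13 chromosome II copies (left) and of the other 46 intronless copies (right) in each library, by exposure, hypoxia in red and normoxia in blue; bars show the mean and SD of 3 libraries. The chromosome II sums do not overlap in any exposure (16.9 to 93.1 CPM in hypoxia, 3.47 to 12.8 CPM in normoxia), while the other copies overlap in exposures 1, 3 and 4.

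Since these copies pass the filter through hypoxia counts, their fold changes and p-values are given from the fit with no filter. *his-10*, an H4 copy, had the largest called rise at exposure 1 in either fit. It had 7.11, 1.87 and 9.12 CPM in the exposure 1 hypoxia libraries, against 0.181, 0.551 and 0.540 CPM in normoxia (log2 fold change 3.85 ± 0.55 SE, edgeR adjusted p = 0.00022). At exposure 2 it had 4.46, 5.35 and 4.90 CPM in hypoxia, against 0.900, 0.511 and 0.747 CPM in normoxia (2.89 ± 0.25, edgeR adjusted p = 5.4e-29). At exposures 2 and 3 the H3 copy *his-42* had larger called rises with no filter (3.56 ± 0.77 and 3.44 ± 1.18), from 54 and 24 counts in hypoxia, against 4 and 2 counts in normoxia, and it never passed the filter. *his-9*, an H3 copy whose gene lies less than 1 kb from *his-10*, had the largest rise at exposure 4 in either fit. Its exposure 3 values were 2.56, 2.92 and 3.59 CPM in hypoxia, against 0.892, 0.393 and 0.677 CPM in normoxia (2.22 ± 0.33, edgeR adjusted p = 2.5e-06). At exposure 4 it had 6.66, 8.30 and 6.45 CPM in hypoxia, against 0.685, 0.271 and 0.495 CPM in normoxia (3.83 ± 0.23, edgeR adjusted p = 2.1e-23). In exposure 1 its log2 fold change was 3.18 ± 0.51 (edgeR adjusted p = 0.00057), with 10.3, 3.16 and 12.8 CPM in hypoxia, against 0.393, 0.964 and 1.59 CPM in normoxia. With the filter the exposure 1 call (edgeR adjusted p = 0.017) was lost without normoxia replicate 2 (adjusted p = 0.067), hypoxia replicate 1 (0.051) or hypoxia replicate 3 (0.059).

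The block also took a larger part of the intronless reads in hypoxia. It held 42.4 ± 16.6%, 31 ± 2.3%, 19.6 ± 5.4% and 36.9 ± 7.1% of the reads on intronless copies in hypoxia (mean ± SD, n = 3) at exposures 1 to 4, against 9.54 ± 3.88%, 14 ± 1.8%, 9.13 ± 2.90% and 5.52 ± 1.12% in normoxia. In single libraries the share was lowest in hypoxia at 13.4% (95% Wilson interval 12.2 to 14.6%, counting error only), in replicate 2 of exposure 3, and highest in normoxia at 15.9% (14.3 to 17.6%), in replicate 2 of exposure 2.

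Of the protein-coding genes within 5000 bases of the block, *ZK131.11*, which ends 96 bases before *his-16*, was called higher at exposures 2 and 4 (edgeR adjusted p = 0.00011 and 0.00058), and its log2 fold changes were 0.42, 0.61, 0.06 and 0.48. *F08G2.4*, between the block and the next gene, had 0.42 at exposure 2 (edgeR adjusted p = 0.034) and was not called at the other exposures. *F08G2.5*, on the far side of *F08G2.4*, was called higher in all 4 exposures. It averaged 35.3, 30.4, 34.9 and 45.9 CPM in hypoxia, against 5.05, 2.33, 1.10 and 1.62 CPM in normoxia (log2 fold changes 2.81, 3.8, 4.98 and 4.77, edgeR adjusted p = 0.013, 4.2e-09, 2.6e-05 and 7.5e-06). Its hypoxia level at exposure 3 was as high as at exposures 1 and 2, whereas the histone block was lowest there. These neighbours were named after their values were seen, and their part in the counts of the block was not tested.

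The other 46 intronless copies followed a different course by exposure. Their sum averaged 76.8 ± 12.1 CPM in hypoxia and 78.0 ± 12 CPM in normoxia at exposure 1, and 112 ± 11 CPM in hypoxia and 65.6 ± 15.7 CPM in normoxia at exposure 2 (SD, n = 3). With no filter 0, 26, 10 and 7 of the 46 were called higher at exposures 1 to 4, and 2, 5, 0 and 2 were called lower. Of all genes 8.38%, 21.3%, 7.28% and 15.3% were called higher and 4.87%, 19.6%, 11.6% and 12.2% lower. The count of 7 is close to the 15.3% of all genes called higher at exposure 4. The exposure 2 count included 18 of the 22 copies in 4 chromosome V clusters. Without a filter 5 of the 22 were called higher at exposure 4 and none at exposure 1 or 3. Their sum was 49.5, 58.1 and 57.2 CPM in the exposure 2 hypoxia libraries, against 24.3, 22 and 28.4 CPM in normoxia. At exposure 1 it was 38.5, 21.7 and 36.4 CPM in hypoxia, against 18.7, 26.6 and 30.3 CPM in normoxia, and the groups overlapped. *his-3*, an H2A copy of these clusters, had the largest rise among them at exposure 2, 4.82 ± 0.08 CPM in hypoxia and 1.04 ± 0.20 CPM in normoxia (SD, n = 3; log2 fold change with no filter 2.34 ± 0.24 SE, edgeR adjusted p = 1.6e-21), from 540 counts in hypoxia and 99 counts in normoxia.

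**Figure D3:**
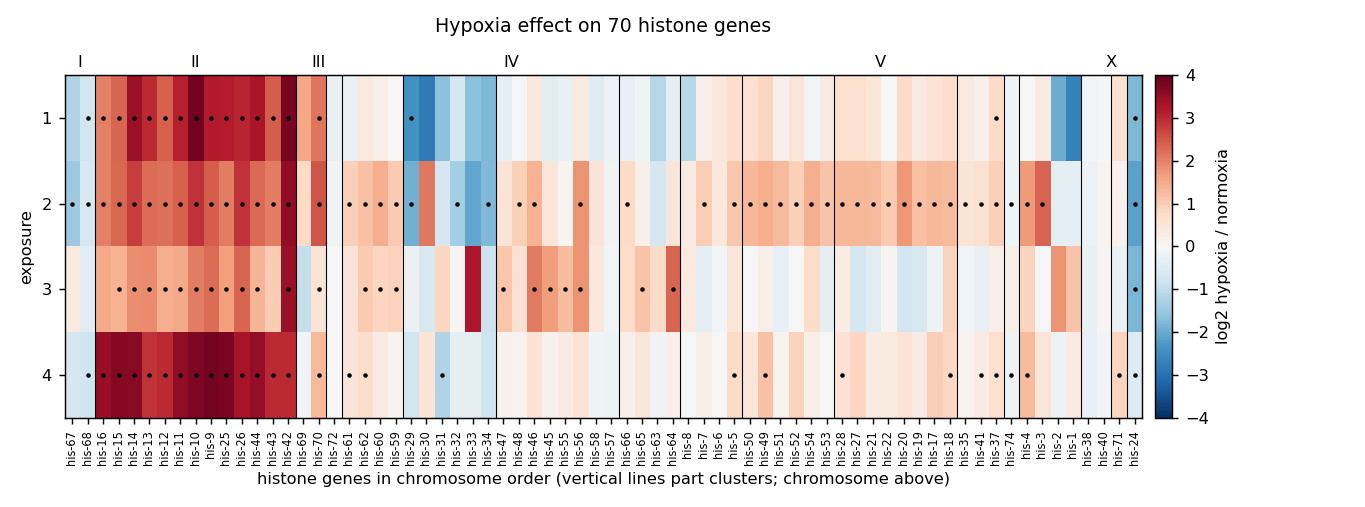
Log2 fold change (hypoxia over normoxia, edgeR with no filter) of 70 histone genes, the 2 fragments left out, in chromosome order (columns) at exposures 1 to 4 (rows); red is higher in hypoxia, blue lower, and a dot marks an adjusted p under 0.05. The 13 chromosome II copies are red in every exposure, the chromosome V clusters mainly in exposure 2, and *his-24* at the right end is blue in all 4.

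A set of 15 intronless copies in 3 chromosome IV clusters (*his-59* to *his-62*, *his-45* to *his-48* with *his-55*, *his-56* and *his-58*, and *his-63* to *his-66*) was higher at exposures 2 and 3. With no filter 0, 8, 10 and 2 of the 15 were called higher, against 8.38%, 21.3%, 7.28% and 15.3% of all genes, and none lower. The count of 2 at exposure 4 is near the share of all genes. Their sum was 38.5, 75.6 and 54.7 CPM in the exposure 3 hypoxia libraries, against 28.5, 26.5 and 27.4 CPM in normoxia, with no overlap. At exposure 4 it was 97.3, 37.3 and 37.4 CPM in hypoxia, against 41.3, 39.1 and 53.5 CPM in normoxia, so that 1 hypoxia library stood far above the other 5. Ribosomal RNA reads, counted on 20 genes, should be removed by poly(A) selection. At exposures 3 and 4 the hypoxia library with the largest share of them also had the highest sum of these copies. The share was 0.668%, 10.2% and 5.31% of counts in the exposure 3 hypoxia libraries, against 0.857%, 1.14% and 0.821% in normoxia. At exposure 4 it was 17.4%, 0.544% and 0.413% in hypoxia, against 3.69%, 1.87% and 4.79% in normoxia. The sum of the 4 chromosome V clusters was also highest in the 17.4% library (40.5, 30.3 and 25.4 CPM in exposure 4 hypoxia). It was not highest in the 10.2% library (16.4, 21.6 and 25.4 CPM in exposure 3 hypoxia). With the ribosomal RNA share as a covariate, the median log2 fold change at exposure 3 of the 9 chromosome IV copies tested was 0.36, beside 0.83 without it, and 3 of the 9 were called higher in either fit. At exposures 1, 2 and 4 the median rose to 0.12, 1.06 and 0.35, beside 0.05, 0.975 and 0.27 without it. Of the 9, 10 and 15 tested there, 0, 9 and 3 were called higher, beside 0, 8 and 0 without it. Without it 13.3%, 37.2% and 27.1% of all tested genes were called higher. For the block on chromosome II, the exposure 1 hypoxia sums of 87.9, 19.1 and 93.1 CPM stood beside ribosomal shares of 1.31%, 0.904% and 1.62%, and the exposure 3 hypoxia sums of 18.7, 16.9 and 26.2 CPM beside 0.668%, 10.2% and 5.31%. With the covariate 10, 10, 2 and 9 of its tested copies were called higher, beside 8, 10, 2 and 9 without it, and the exposure 1 median log2 fold change of the 10 tested was 3.86, beside 3.13.

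**Figure D4:**
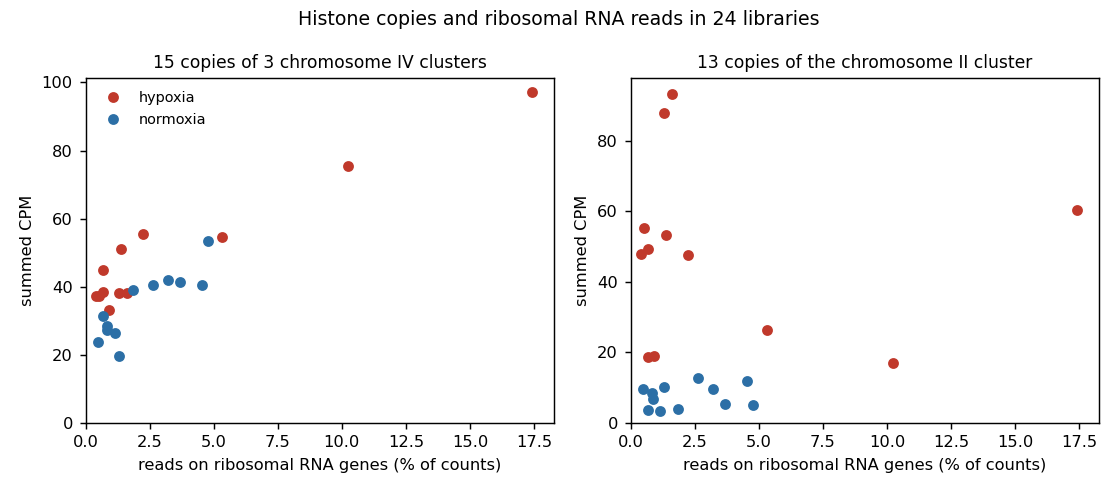
Summed CPM of 15 copies in 3 chromosome IV clusters (left) and of the 13 chromosome II copies (right) against the share of counts on ribosomal RNA genes, one point per library, hypoxia in red and normoxia in blue. The libraries with 17.4% and 10.2% ribosomal reads have the 2 highest chromosome IV sums (97.3 and 75.6 CPM), while the chromosome II sums separate by treatment.

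Of the class leaders, *his-60* (H4), *his-59* (H3) and *his-58* (H2B) belong to these chromosome IV clusters. *his-60* had 13.9, 12.6 and 15.5 CPM in the exposure 2 hypoxia libraries, against 6.60, 3.27 and 6.90 CPM in normoxia (log2 fold change 1.42 ± 0.23 SE, edgeR adjusted p = 0.00025). It was also called at exposure 3, with 9.98, 13 and 10.6 CPM in hypoxia, against 6.27, 6.31 and 6.31 CPM in normoxia (0.83 ± 0.15, edgeR adjusted p = 0.0044), and not at exposures 1 (9.96, 7.80 and 6.95 CPM in hypoxia, against 5.47, 7.71 and 7.56 CPM in normoxia) and 4 (11.8, 8.21 and 7.61 CPM in hypoxia, against 5.60, 6.37 and 8.65 CPM in normoxia). *his-59* was called at exposure 2 only, where it had 4.98, 5.76 and 5.05 CPM in hypoxia, against 2.07, 1.94 and 4.25 CPM in normoxia (1.02 ± 0.27, edgeR adjusted p = 0.0061). At exposure 3 its log2 fold change of 0.91 ± 0.31 missed the threshold (edgeR adjusted p = 0.060), and it passed in DESeq2 (adjusted p = 0.027). *his-58* (H2B) was called in no exposure. It had 2.32, 3.06 and 3.49 CPM in hypoxia at exposure 2, against 1.73, 1.70 and 3.28 CPM in normoxia (0.49 ± 0.28, edgeR adjusted p = 0.14), a rise that was called without normoxia replicate 3 (0.87, adjusted p = 0.0080). Without hypoxia replicate 1 of exposure 4, the library with 17.4% ribosomal reads, it was called lower at that exposure (log2 fold change -0.71, edgeR adjusted p = 0.046, beside -0.12 with all libraries).

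*his-68*, the leading H2A copy, lies on chromosome I beside the H4 copy *his-67*, and it fell. It had 4.23, 4.28 and 4.17 CPM in the exposure 1 hypoxia libraries, against 7.17, 6.96 and 6.96 CPM in normoxia (log2 fold change -0.72 ± 0.15 SE, edgeR adjusted p = 0.017). At exposure 2 it had 2.80, 4.70 and 3.99 CPM in hypoxia, against 5.87, 6.06 and 7.65 CPM in normoxia (-0.67 ± 0.20, edgeR adjusted p = 0.012). Hypoxia libraries lay below normoxia libraries in all 4 exposures. At exposure 4, where it was the largest called fall of the members that passed the filter, it had 5.0, 5.47 and 5.15 CPM in hypoxia, against 8.29, 8.87 and 8.65 CPM in normoxia (-0.76 ± 0.11, edgeR adjusted p = 0.00062). With no filter the H4 copy *his-31* fell more at that exposure (-1.20 ± 0.43, edgeR adjusted p = 0.029). Exposure 3 was not called, with 4.70, 5.76 and 4.25 CPM in hypoxia, against 5.88, 6.70 and 7.23 CPM in normoxia (-0.44 ± 0.18, edgeR adjusted p = 0.10). The exposure 1 call was lost without normoxia replicate 2 or 3 or hypoxia replicate 1 or 3, at adjusted p values between 0.063 and 0.081. A cluster of 6 copies on chromosome IV, *his-29* to *his-34*, was also lower, at a sum of 2.56 ± 0.17, 1.69 ± 0.18 and 2.86 ± 0.32 CPM in hypoxia at exposures 1, 2 and 4, against 5.57 ± 1.14, 4.54 ± 0.70 and 4.05 ± 0.62 CPM in normoxia (SD, n = 3), whereas at exposure 3 the groups overlapped (3.06 ± 0.84 CPM in hypoxia and 2.75 ± 0.20 CPM in normoxia). Its H3 copy *his-32* was called lower at exposure 2 (-1.40 ± 0.24, edgeR adjusted p = 0.00043).

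Summed by class over the intronless copies, hypoxia over normoxia gave ratios of 1.23, 1.79, 1.00 and 1.34 for H2A in exposures 1 to 4. H2B gave 1.76, 2.25, 1.58 and 2.03. For H3 the ratios were 1.96, 2.02, 2.03 and 2.06, and for H4 they were 1.82, 2.51, 2.08 and 1.80. The hypoxia and normoxia libraries did not overlap in exposure 2 for any of the 4 classes, nor in exposures 3 and 4 for H2B, H3 and H4, and they overlapped in exposure 1 for all 4. These sums are descriptions with no test, and 3 libraries against 3 cannot reach an exact p under 0.1.

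Among the intron-containing members *his-24*, the linker histone H1, had the largest called fall in exposures 1, 2 and 3 of the members that passed the filter. With no filter the H2B copy *his-29* fell more at exposure 1 (-2.42 ± 0.65, from 10 counts in hypoxia and 56 in normoxia). *his-24* had 102, 78.4 and 85.5 CPM in hypoxia at exposure 1, against 269, 305 and 354 CPM in normoxia (log2 fold change -1.78 ± 0.15 SE, edgeR adjusted p = 0.00067). At exposure 2 it had 67.4, 76.1 and 64.5 CPM in hypoxia, against 374, 323 and 314 CPM in normoxia (-2.18 ± 0.09, edgeR adjusted p = 1.2e-08). No hypoxia library came near a normoxia library in these exposures. At exposure 3 it had 34.5, 47.1 and 69.5 CPM in hypoxia, against 195, 155 and 199 CPM in normoxia (-1.86 ± 0.24, edgeR adjusted p = 0.00098). At exposure 4 the fall was smaller, with 84.8, 99.2 and 114 CPM in hypoxia, against 134, 140 and 146 CPM in normoxia (-0.53 ± 0.09, edgeR adjusted p = 0.0022), and the groups still did not overlap. The effect differed between exposures in 1 fit of all 24 libraries (edgeR F test, adjusted p = 5.8e-05), the smallest p of any member, and the normoxia groups alone also differed (adjusted p = 2.1e-05), averaging 309 ± 43, 337 ± 32, 183 ± 25 and 140 ± 6 CPM (SD, n = 3) at exposures 1 to 4. The calls held with every single library left out.

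Other linker histones have other names, and they did not all fall. *hil-1* was called higher at exposure 4 (2.39, edgeR adjusted p = 7.9e-05) and lower at exposure 2 (-0.47, edgeR adjusted p = 0.013), and had 1.48 and 1.12 at exposures 1 and 3. *hil-4* and *hil-5* were called lower at exposures 2 and 4 (-0.41 and -0.27 for *hil-4*, -0.51 and -0.19 for *hil-5*) and had between -0.23 and 0.11 at the other exposures. *hil-2* was called lower at all 4 exposures (edgeR adjusted p = 0.00071, 6.7e-08, 0.0022 and 0.032), by log2 fold changes of -1.51, -1.81, -0.93 and -0.50. *hil-3* was called lower at exposures 1 to 3 (-1.27, -1.33 and -1.27) and had -0.09 at exposure 4. *hil-7* was called lower at exposures 2 and 3 (-5.21 and -3.67). Over the list of 11 histone genes with other names, 9 were tested in each exposure. Of the 9, 0, 0, 2 and 1 were called higher, against 13.3%, 37.2%, 12.4% and 27.1% of all tested genes. Called lower were 3, 9, 3 and 5, against 7.4%, 36.3%, 17.7% and 23%. The median log2 fold change was -0.29, -0.51, -0.05 and -0.19, beside -0.02, -0.01, 0.03 and -0.00024 over all tested genes. *htz-1*, the H2A.Z variant, was called lower at exposures 1, 2 and 4 (-0.55, -0.99 and -0.27).

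The H3.3-type genes did not move together. *his-70*, an H3.3-like gene, was called higher in exposures 1, 2 and 4 with the filter, and in all 4 without it. It had 8.29, 9.78 and 8.01 CPM in hypoxia at exposure 1, against 2.63, 1.65 and 1.65 CPM in normoxia (2.14 ± 0.25, edgeR adjusted p = 0.0016). At exposure 2 it had 14.1, 14.4 and 13.9 CPM in hypoxia, against 3.27, 2.04 and 2.76 CPM in normoxia (2.50 ± 0.16, edgeR adjusted p = 3.3e-07). At exposure 3 it had 10.6, 7.12 and 9.54 CPM in hypoxia, against 6.66, 6.82 and 5.60 CPM in normoxia (0.52 ± 0.18, edgeR adjusted p = 0.067, 0.049 with no filter and 0.038 without hypoxia replicate 2). That exposure differed from the others in its normoxia libraries, which were the highest of the 4 groups. At exposure 4 it had 6.95, 7.52 and 7.53 CPM in hypoxia, against 2.10, 3.3 and 3.14 CPM in normoxia (1.32 ± 0.18, edgeR adjusted p = 0.00055). Both the effect across exposures and the normoxia levels differed (edgeR F tests, adjusted p = 6.1e-05 and 6.3e-06).

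The sperm markers moved with *his-70*. Of the 15 listed (major sperm protein genes and sperm-specific phosphatases among them), 14, 15, 14 and 14 were tested in exposures 1 to 4. Of these, 14, 15, 1 and 13 were called higher and none lower, against 13.3%, 37.2%, 12.4% and 27.1% of all tested genes called higher. Their summed level was 629 to 793, 677 to 756, 557 to 869 and 379 to 413 CPM in hypoxia at exposures 1 to 4, against 308 to 349, 311 to 406, 656 to 728 and 210 to 263 CPM in normoxia. Exposure 3, where *his-70* had its smallest fold change, was the one with the highest sperm marker level in normoxia. The part of sperm content in the *his-70* result was not tested.

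*his-71*, an H3.3 gene, was called at exposure 4 alone. It had 40.9, 51 and 47.2 CPM in hypoxia at exposure 4, against 23.7, 24.2 and 24.2 CPM in normoxia (0.91 ± 0.09, edgeR adjusted p = 9.1e-05). At exposure 1 hypoxia replicate 2 stood apart, with 49.3, 24.3 and 52.5 CPM in hypoxia, against 22.9, 30.5 and 29.98 CPM in normoxia (0.62 ± 0.30, edgeR adjusted p = 0.18), and without that library it was called (adjusted p = 0.0043). At exposures 2 and 3 the groups overlapped, with 53.1, 46.9 and 46 CPM in hypoxia, against 41.6, 47.5 and 53.9 CPM in normoxia at exposure 2, with a call in exposure 2 only without normoxia replicate 3 (adjusted p = 0.044), and 22.3, 16.9 and 28.6 CPM in hypoxia, against 28.3, 22.5 and 31.6 CPM in normoxia at exposure 3. The effect differed between exposures (edgeR F test, adjusted p = 0.0076).

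*his-72*, the other H3.3 gene and the most abundant member per length, changed by small amounts. Its log2 fold changes were -0.27 ± 0.12, -0.17 ± 0.05, -0.03 ± 0.08 and 0.03 ± 0.05, and exposure 2 was called (edgeR adjusted p = 0.016), with 236, 234 and 220 CPM in hypoxia, against 269, 278 and 288 CPM in normoxia. That call was lost with no filter (adjusted p = 0.098) and without hypoxia replicate 3 (adjusted p = 0.082). At exposure 1 it had 230, 186 and 237 CPM in hypoxia, against 254, 278 and 269 CPM in normoxia. At exposures 3 and 4 the groups overlapped, at 205 to 272 CPM in hypoxia and 212 to 257 CPM in normoxia. *his-74*, another H3.3-type gene, was called lower by small amounts at exposures 2 and 4. It had 80.8, 102 and 96.7 CPM in hypoxia at exposure 2, against 109, 116 and 120 CPM in normoxia (-0.20 ± 0.08, edgeR adjusted p = 0.042), and 151, 138 and 144 CPM in hypoxia at exposure 4, against 154, 163 and 156 CPM in normoxia (-0.16 ± 0.05, edgeR adjusted p = 0.033). Each call was lost in 4 of the 6 fits that left 1 library out. At exposure 3 every hypoxia library was above normoxia (167, 167 and 159 CPM in hypoxia, against 154, 146 and 128 CPM in normoxia) without a call (0.20 ± 0.08, edgeR adjusted p = 0.11), and at exposure 1 the groups overlapped (-0.13 ± 0.14). *his-69* had at most 0.364 CPM in any library and *his-40* at most 1.65 CPM, and neither passed the filter. With no filter neither was called in any exposure.

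**Figure D5:**
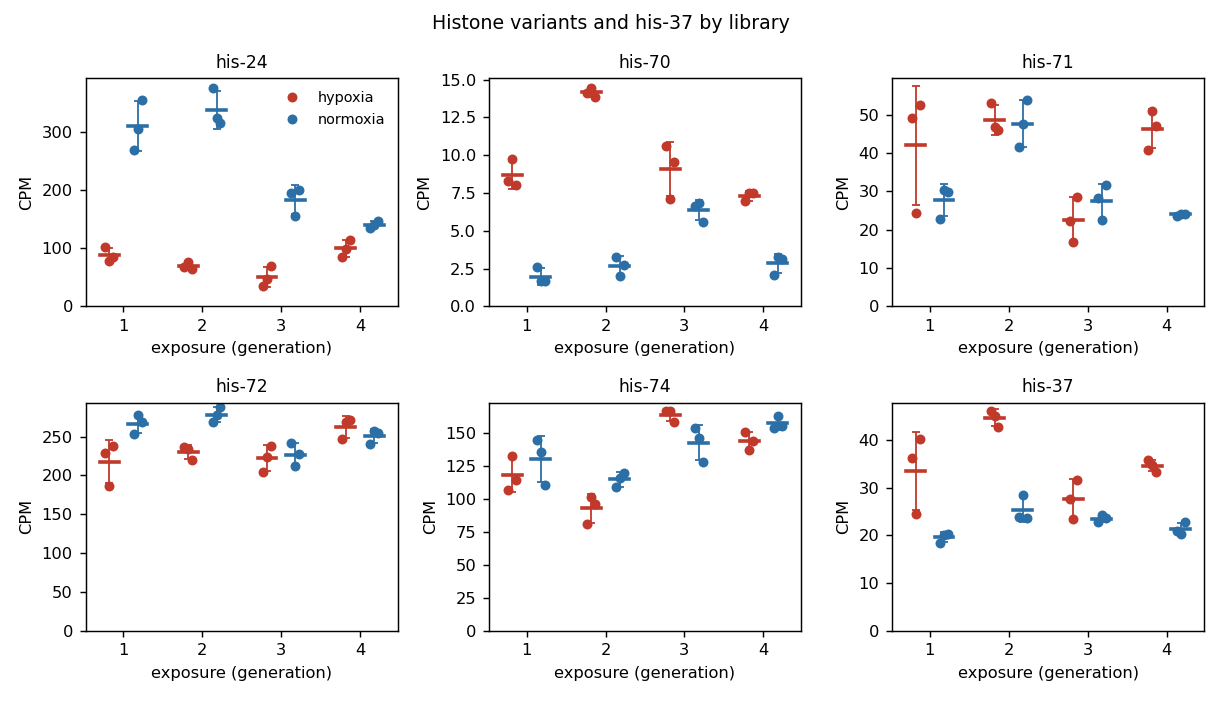
CPM of 5 histone variants (*his-24*, *his-70*, *his-71*, *his-72* and *his-74*) and of *his-37* in each library, by exposure, hypoxia in red and normoxia in blue; bars show the mean and SD of 3 libraries, and each panel has its own axis from 0. *his-24* is lower in hypoxia in all 4 exposures, *his-70* is higher in hypoxia in all 4 and *his-72* stays between 186 and 288 CPM.

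The chromosome V group of *his-35*, *his-41* and *his-37* holds an H2A, an H2B and an H4 gene with introns. *his-35* was called higher at exposure 2, with 35.7, 39.1 and 39.8 CPM in hypoxia, against 27.6, 27.5 and 32 CPM in normoxia (0.50 ± 0.08, edgeR adjusted p = 0.00033). Its log2 fold changes at exposures 1, 3 and 4 were 0.37 ± 0.18, -0.13 ± 0.10 and 0.16 ± 0.10, and without hypoxia replicate 2 it was called at exposure 1 as well (0.55, adjusted p = 0.0060). *his-41* had 0.22 ± 0.30 at exposure 1, called without hypoxia replicate 2 alone (0.51, adjusted p = 0.013). It was called in opposite directions, higher at exposures 2 and 4 (0.57 ± 0.07 and 0.34 ± 0.09, edgeR adjusted p = 5.3e-05 and 0.011) and lower at exposure 3 (-0.33 ± 0.10, edgeR adjusted p = 0.040). At exposure 2 it had 56.6, 65.9 and 58.9 CPM in hypoxia, against 41.4, 43.8 and 46.3 CPM in normoxia. At exposure 3 it had 33.9, 35.4 and 42.7 CPM in hypoxia, against 48.4, 46.6 and 46.2 CPM in normoxia, and this fall lost its call without any 1 of 5 of the 6 libraries and with no filter (adjusted p = 0.053). *his-37* was called higher at exposures 1, 2 and 4 (0.80 ± 0.20, 0.92 ± 0.09 and 0.66 ± 0.08, edgeR adjusted p = 0.031, 5.0e-06 and 0.00022). It had 36.1, 24.4 and 40.1 CPM in hypoxia at exposure 1, against 18.5, 20.0 and 20.3 CPM in normoxia. At exposure 2 it had 46.1, 45.1 and 42.7 CPM in hypoxia, against 23.9, 28.5 and 23.7 CPM in normoxia, and at exposure 4 it had 35.7, 34.8 and 33.4 CPM in hypoxia, against 20.9, 20.2 and 22.8 CPM in normoxia. No hypoxia library overlapped normoxia in these exposures, while at exposure 3 the groups overlapped (27.7, 23.4 and 31.7 CPM in hypoxia, against 22.7, 24.2 and 23.6 CPM in normoxia). *his-37* and *his-41* overlap the protein-coding genes *nstp-10* and *C50F4.6*. *his-19*, an intronless H2A copy, was the other member with opposite calls, at 4.39, 5.20 and 5.14 CPM in hypoxia at exposure 2, against 2.33, 2.48 and 2.21 CPM in normoxia (1.17 ± 0.17, edgeR adjusted p = 0.00010), and 1.52, 1.61 and 1.62 CPM in hypoxia at exposure 3, against 2.59, 2.23 and 2.68 CPM in normoxia (-0.66 ± 0.20, edgeR adjusted p = 0.041). The exposure 3 fall of *his-19* lost its call in DESeq2 (adjusted p = 0.078), with no filter (0.12) and without any 1 of the 6 libraries.

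Of the 25 members that were tested in all 4 exposures, 12 had a hypoxia effect that differed between exposures, against 68.2% of the 12517 genes in that fit. With no filter it was 26 of 72, against 25.5% of all genes. The normoxia groups differed from each other for 6 of the 25 (*his-9*, *his-24*, *his-70*, *his-71*, *his-72* and *his-74*), against 54% of all genes, and for 14 of 72 with no filter, against 23.2%. Within the chromosome II block only *his-9* and *his-13* were tested there with the filter, and their effects were not called different between exposures (edgeR F test, adjusted p = 0.078 and 0.37).

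Genes that act with histones were read from lists. Of 31 DNA replication genes, all tested, 0, 1, 1 and 0 were called higher and 3, 30, 1 and 29 lower at exposures 1 to 4, with median log2 fold changes of -0.24, -0.51, 0.11 and -0.29, beside 7.4%, 36.3%, 17.7% and 23% of all tested genes called lower, shares that also stand beside the list counts that follow. Exposure 2, where most histone copies were called higher, was thus, with exposure 4, one where nearly all replication genes were called lower. Of 14 genes for histone mRNA processing and histone chaperones, 0, 2, 3 and 1 were called higher and 2, 11, 0 and 10 lower. *cdl-1*, which codes for the stem-loop binding protein of histone mRNA, had log2 fold changes of -0.48, -0.69, -0.13 and -0.29 and was called lower at exposures 1, 2 and 4 (edgeR adjusted p = 0.027, 4.4e-06 and 0.0011). *nap-1*, a chaperone of H2A and H2B, was called higher at exposures 2, 3 and 4 (0.78, 0.52 and 0.48). Germline and oocyte markers moved in the same exposures: of 12 germline markers 0, 9, 0 and 7 were called lower and 0, 1, 2 and 1 higher, and of 10 oocyte and eggshell markers 2, 10, 2 and 8 were called lower and none higher. Molting markers summed to 80.3 to 208, 321 to 390, 41.1 to 76.8 and 205 to 240 CPM in hypoxia, against 421 to 480, 482 to 527, 275 to 363 and 467 to 517 CPM in normoxia. Of these 5 markers 0, 2, 0 and 0 were called higher and 3, 3, 5 and 5 lower. Of all tested genes 13.3%, 37.2%, 12.4% and 27.1% were called higher. The early embryo list held 9 genes, of which 1 was tested, and its summed level was at most 4.68 CPM in hypoxia and 10.9 CPM in normoxia. The adult soma list summed to 18790 to 52480, 20770 to 29590, 46510 to 54720 and 33570 to 40570 CPM in hypoxia at exposures 1 to 4. In normoxia it summed to 76100 to 97570, 61040 to 85980, 65400 to 82950 and 45680 to 63950 CPM. Of its 6 genes 0, 2, 0 and 0 were called higher and 2, 4, 3 and 5 lower. The part of these cell types and stages in the histone results was not tested.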

How the data were processed

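Libraries were made from poly(A)-selected RNA with a directional kit and sequenced on a NovaSeq. Per the labels and methods, the authors filtered at a quality score of 30, trimmed with CutAdapt 4.0, aligned to WS235 (bowtie2) and used FeatureCounts for gene counts; the other versions, the strand setting and the treatment of multiply matching reads are not given in the sources used here. The deposited table holds raw counts. The authors' DESeq2 output tables (fold changes and p-values) were not used.

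Names, classes and coordinates came from the Ensembl and RefSeq annotations of WBcel235. Ensembl symbols are shared between copies (50 symbols for 72 members), so RefSeq names were used, matched by locus tag for all 72, with the same coordinates. Structure (introns, exon length) is from the gene models, and members within 20000 bases form a cluster.

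Counts were tested in R 4.3.3 with edgeR 4.0.16 (glmQLFit, glmQLFTest, TMM), separately in each exposure, on genes with at least 350 counts over 6 libraries (13171, 13820, 12934 and 13448 genes), and were called at an adjusted p under 0.05. One fit of all 24 libraries gave the F tests on 12517 genes. The replicates are separate pools of worms, and p-values measure the spread between them. CPM use the TMM library sizes of all 24 libraries. Ribosomal genes took 0.413 to 17.4% of the counts. Scripts were tested on simulated data. Alternatives were DESeq2 1.42.0, upper-quartile scaling, no filter (any gene with a count), a minimum of 10 counts per library, 1 fit of all libraries, a replicate block, ribosomal genes left out or their share as covariate, a log2 fold change of at least 1, and each library left out.

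The members and lists were chosen with earlier results of these data known. Values by library are given for the variants tested, the intronless copy highest per kb in each class, the largest called rise and fall without overlap in each exposure (with the filter), the member with the smallest p for a difference between exposures, and members with opposite calls; clusters, *his-3*, *his-32*, *his-37* and neighbours were named after values were seen. No sequence is shown.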

Additional observations from a re-analysis of the deposited data

Results flagged for a closer look

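The hypoxia effect differed between the 4 exposures for 9 of the members named by rule (edgeR F test in 1 fit of 24 libraries, adjusted p). For *his-24* it was 5.79e-05, with a smaller fall at exposure 4 than at exposures 1 to 3. The value of *his-70* was 6.1e-05, with log2 fold changes of 2.14, 2.50, 0.52 and 1.32, and that of *his-19* was 0.000338, with 0.36, 1.17, -0.66 and 0.36. For *his-71* the value was 0.00763, with a call at exposure 4 alone. Larger adjusted p values were those of *his-72* at 0.0186, *his-74* at 0.0228, *his-60* at 0.0348, *his-41* at 0.0423 and *his-35* at 0.047. Of all genes in that fit 68.2% were called, so such calls were common among all genes, and why the exposures differ was not tested.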

How the results depend on the processing

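Counts of members called moved with the settings. At exposure 1 the 10 called higher became 6 in 1 fit of all 24 libraries and 2 to 17 with single libraries left out, and the 2 called lower became 1 with a log2 fold change of at least 1 asked as well and 1 to 2 with libraries left out. At exposure 2 the 31 called higher became 16 in 1 fit of all libraries, and the 5 called lower became 2 under the fold minimum and 3 to 5 with libraries left out. At exposure 3 the 5 called higher became 22 with no filter, 12 with at least 10 counts in each library and 8 in 1 fit, and the 3 called lower became 1 with no filter, under the fold minimum or with the ribosomal RNA share as covariate, and 1 to 2 with libraries left out. At exposure 4 the 14 called higher became 24 with no filter and 5 in 1 fit, and the 3 called lower became 0 under the fold minimum and 2 to 8 with libraries left out (8 without hypoxia replicate 1). The 1 fit tested 25 members, and with no filter all 72 were tested. The 12 members with effects that differed between exposures became 26 with no filter and 6 to 15 with libraries left out, and the 6 that differed between normoxia groups became 14 with no filter, 17 in DESeq2 and 4 to 14 with libraries left out. With the 3 intron copies added to their classes (chosen after seeing the data, as were the other alternatives for cluster sums), the log2 ratio at exposure 2 was 0.50 for H2A (0.84 without them) and 0.68 for H2B (1.17), and at exposure 3 it was 0.66 for H4 (1.06). It turned to -0.039 for class H2B, log2 ratio of summed CPM, exposure 3 (0.66 without them). The class H2A log2 ratio at exposure 3 ran from -0.11 to 0.10 with libraries left out. Single members were followed in this way only where named by rule (14 members). Among these, directions turned only where the main fit made no call: *his-58* with the ribosomal covariate (-0.12 at exposure 3 and 0.012 at exposure 4), *his-72* at exposure 4 with no filter (-0.0019), and with libraries left out *his-59* (-0.037 to 0.21 at exposure 1, -0.41 to 0.38 at exposure 4), *his-41* (-0.011 to 0.51 at exposure 1), *his-72* (-0.12 to 0.026 at exposure 3, -0.0046 to 0.063 at exposure 4) and *his-58* (-0.71 to 0.13 at exposure 4, called at the low end). The cause of these changes was not tested.

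The main fits did not use replicate numbers as pairs. In their deviations from the group mean, same-numbered libraries of an exposure correlated between -0.31 and 0.30. At exposure 4 each hypoxia library correlated best with the normoxia library of its own number, at 0.068, 0.066 and 0.054. At exposure 2 none did, and exposures 1 and 3 were mixed. With 3 libraries per group this check cannot exclude pairing. With a replicate block, 4, 31, 5 and 15 members were called higher and 1, 5, 1 and 2 lower at exposures 1 to 4, and 8 differed between exposures; the test between normoxia groups could not be fitted with the block. Low counts limit single intronless copies, which together took 1875 to 6674 counts per library.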

Other observations

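The 2 fragments were near the floor. *his-39* had 9 counts over all 24 libraries and *his-73* had 228. The H2A copy with introns, *his-57*, which overlaps *klp-12*, was called in no exposure and had log2 fold changes between -0.24 and -0.12. On chromosome X, the H4 copy *his-38* had unfiltered log2 fold changes between -0.33 and -0.12, with 623 counts over all libraries. Summed over the 8 intron-containing members, hypoxia over normoxia gave ratios of 0.712, 0.669, 0.812 and 1.02 at exposures 1 to 4. The 8 did not move together, since 4, 4, 2 and 5 of them had positive log2 fold changes. The lowest in each exposure was that of *his-24* (-1.78, -2.18, -1.86 and -0.53), an abundant member that weighs heavily in the sum.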
